A study of Homo sapiens with 6 samples.

Results

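The chaperone genes of MCF10A cells, those of the heat shock protein families, their J-domain partners and the CCT chaperonin, were followed after depletion of PAX9. Members were chosen by symbol alone: HSPA, HSPB, HSPD, HSPE, HSPH and HSP90 names, DNAJA, DNAJB and DNAJC names and CCT subunits, without names that end in P and digits. The rule found 85 of the 26822 symbols of the table, on 83 separate loci, since HSPE1 and HSPE1-MOB4 share a value, as do HSPB2 and HSPB2-C11orf52. MCF10A is an established non-tumour breast epithelial line. In both groups the cells took up 30 nM siRNA for 72 hours, either the non-targeting siNT or siPAX9, which is directed against the transcription factor PAX9. Poly(A)+ RNA of 3 samples per group was sequenced, and every value below is the authors' pooled FPKM of a group (fragments divided by transcript length and by the reads mapped), with 1 value per locus and group. No spread between samples can therefore be given, no difference was tested, and the table gives no depth for a sample or group.

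Chaperones hold unfolded proteins until they fold, are handed on or are degraded. HSP70 proteins bind short unfolded stretches in a cycle that J proteins start and exchange factors close, HSP90 acts later on kinases and receptors, small heat shock proteins keep clients soluble without ATP, and the CCT ring encloses newly made actin and tubulin. In several of these families, part of the genes is active at all times and another part is switched on by heat shock factor 1. This factor binds heat shock elements, repeats of a short unit in alternating orientation.

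PAX9 itself stood at 2.80 FPKM in siNT and 0.325 FPKM in siPAX9, in the direction the labels give. In bulk RNA, fewer expressing cells and less RNA per cell cannot be told apart. The basal breast epithelial markers KRT5, KRT14, KRT17, TP63, CDH1, EGFR, ITGB4 and LAMB3 were all above 1 FPKM, and their sum was 3738 FPKM in siNT and 4395 in siPAX9, with KRT17 the most abundant. Of these 8, 4 (TP63, EGFR, ITGB4 and LAMB3) were lower in siPAX9 and 4 were higher, with a median log2 change of 0.03. TP63 was at 35.4 and 25.3 FPKM. CDH1 (E-cadherin) was more than 2-fold higher in siPAX9, at 124 against 45.3 FPKM. Markers of other cell types were low: COL3A1 and CD3E were listed at 0 in both groups, and LUM, PDGFRB, PTPRC, LYZ, CDH5 and VWF stayed under 0.1 FPKM. DCN, a fibroblast marker, was an exception at 5.85 FPKM in siNT and 37.9 in siPAX9, and the endothelial marker KDR read 0.798 and 1.94 FPKM. CD68 was at 3.38 and 3.77 FPKM. Whether these moved with the chaperone genes was not tested.

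Promoter windows are shown for members of both directions, since the heat shock element is the sequence that the inducible members are known for. They were chosen as examples after the values were seen, and members that go the other way are named with the counts further on: DNAJA1 has 3 units and was higher, and CCT4, CCT2 and HSPA9 have 2 units and were lower. Each runs from 250 bases before to 50 after the start of the RefSeq gene (GRCh38.p14, the strand of the gene). In the first 3 genes, all lower in siPAX9, capitals mark GAANNTTCNNGAA or its reverse complement, 3 units of a heat shock element. The windows lie at chr11:123062087-123062386 (minus strand) for HSPA8, chr14:102086995-102087294 (minus strand) for HSP90AA1 and chr2:197499791-197500090 (minus strand) for HSPD1.
HSPA8: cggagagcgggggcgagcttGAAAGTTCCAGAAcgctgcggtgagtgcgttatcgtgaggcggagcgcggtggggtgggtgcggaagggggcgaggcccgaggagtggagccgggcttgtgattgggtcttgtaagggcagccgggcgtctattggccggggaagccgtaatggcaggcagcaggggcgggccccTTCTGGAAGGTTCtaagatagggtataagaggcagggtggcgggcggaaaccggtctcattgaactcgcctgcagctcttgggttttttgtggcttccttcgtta
HSP90AA1: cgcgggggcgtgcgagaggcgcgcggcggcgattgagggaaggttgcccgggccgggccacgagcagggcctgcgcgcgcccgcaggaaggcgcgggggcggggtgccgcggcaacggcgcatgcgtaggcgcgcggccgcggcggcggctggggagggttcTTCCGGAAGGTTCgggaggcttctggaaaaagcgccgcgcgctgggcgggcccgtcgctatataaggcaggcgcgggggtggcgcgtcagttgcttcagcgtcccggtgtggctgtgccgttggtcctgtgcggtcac
HSPD1: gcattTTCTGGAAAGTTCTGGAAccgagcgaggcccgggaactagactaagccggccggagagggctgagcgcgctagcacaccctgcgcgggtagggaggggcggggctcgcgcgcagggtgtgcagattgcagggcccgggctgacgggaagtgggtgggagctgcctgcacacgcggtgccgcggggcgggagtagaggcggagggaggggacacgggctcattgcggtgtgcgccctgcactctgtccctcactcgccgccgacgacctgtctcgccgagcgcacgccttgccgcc
In the next 3, all higher in siPAX9, no exact 3-unit match was found and capitals mark 2 units, GAANNTTC or TTCNNGAA. No changed base was allowed. Where the last GAA of 3 units would stand, the letters read gac in HSPA1A, gat in HSPB1 and gag after the first DNAJB1 match. They lie at chr6:31815293-31815592 (plus strand) for HSPA1A, chr19:14518348-14518647 (minus strand) for DNAJB1 and chr7:76302423-76302722 (plus strand) for HSPB1.
HSPA1A: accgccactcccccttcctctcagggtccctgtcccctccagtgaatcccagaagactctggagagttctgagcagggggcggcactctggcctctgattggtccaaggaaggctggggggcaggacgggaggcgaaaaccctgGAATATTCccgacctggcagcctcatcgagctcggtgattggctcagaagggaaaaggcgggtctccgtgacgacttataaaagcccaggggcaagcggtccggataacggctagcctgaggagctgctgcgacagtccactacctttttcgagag
DNAJB1: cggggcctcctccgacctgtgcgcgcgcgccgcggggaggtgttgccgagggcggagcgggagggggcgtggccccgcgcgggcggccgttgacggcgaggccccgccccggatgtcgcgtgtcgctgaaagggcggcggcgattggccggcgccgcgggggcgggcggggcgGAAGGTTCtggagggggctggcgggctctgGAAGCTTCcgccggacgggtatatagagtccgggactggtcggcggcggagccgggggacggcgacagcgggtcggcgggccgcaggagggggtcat
HSPB1: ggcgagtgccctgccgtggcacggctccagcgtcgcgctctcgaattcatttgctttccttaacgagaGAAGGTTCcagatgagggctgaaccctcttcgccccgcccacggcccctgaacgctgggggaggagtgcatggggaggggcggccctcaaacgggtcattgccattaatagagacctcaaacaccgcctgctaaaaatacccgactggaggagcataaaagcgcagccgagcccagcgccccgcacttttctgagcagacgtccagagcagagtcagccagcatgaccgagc
The last, at chr12:103930160-103930459 (plus strand), belongs to the endoplasmic reticulum chaperone HSP90B1, and its capitals mark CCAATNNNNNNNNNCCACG, the endoplasmic reticulum stress element, or its reverse complement.
HSP90B1: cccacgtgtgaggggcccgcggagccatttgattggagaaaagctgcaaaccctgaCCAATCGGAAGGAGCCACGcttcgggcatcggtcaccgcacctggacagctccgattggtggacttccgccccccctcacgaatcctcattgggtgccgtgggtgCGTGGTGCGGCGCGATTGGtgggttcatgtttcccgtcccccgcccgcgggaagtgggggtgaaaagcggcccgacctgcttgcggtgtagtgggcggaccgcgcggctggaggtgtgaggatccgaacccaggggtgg

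Of the 83 loci, 69 had a mean of at least 1 FPKM over the groups. Of the other 14, 11 lay between 0 and 1 and 3 (DNAJB8, DNAJB13 and HSPB3) were listed at 0 in both groups. At least 2-fold lower in siPAX9 was 1 of the 69, HSPA8, where 6.55% of the 12288 named loci that passed the same filter were that much lower. At least 2-fold higher were 5 of 69 (7.25%), namely HSPB1, DNAJB2, HSPA2, DNAJC28 and HSPB8, beside 6.22% of named loci. HSPA2, DNAJC28 and HSPB8, together with HSPA1L, were under 1 FPKM in siNT and passed the filter through siPAX9 alone. With siNT of at least 1 FPKM, 2 of 65 members were 2-fold higher (3.08%), beside 4.11% of the 11908 named loci past that filter. At 1.5-fold, 9 of 69 were lower, beside 16.5% of named loci, and 13 of 69 (18.8%) were higher, beside 13% of them. With siNT of at least 1 FPKM, 9 of 65 (13.8%) were 1.5-fold higher, beside 10.6% of named loci. Lower by any amount were 41 of 69 (59.4%), beside 55.4% of named loci.

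The median log2 change of the 69 loci was -0.12, beside -0.07 for all named loci. The deposited FPKM summed to less in siPAX9, and scaling both groups to the same total (TPM) moved every log2 change up by 0.19. Loci with no symbol carried 87.1% of the summed FPKM in siNT and 87.7% in siPAX9 and are part of that total. With the total taken over named loci the shift would be 0.26. After that scaling 0 of 69 members were 2-fold lower, beside 4.44% of named loci, and 8 of 69 (11.6%) were 2-fold higher, beside 8.52%. Lower by any amount were then 29 of 69, beside 39.7% of named loci, and the members' median was 0.07 with that of all named loci at 0.12. Centring on the median of all named loci moved values by 0.07. Directions below are those of the deposited FPKM, with scalings that turn the median of a family or list named beside it.

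**Figure D1:**
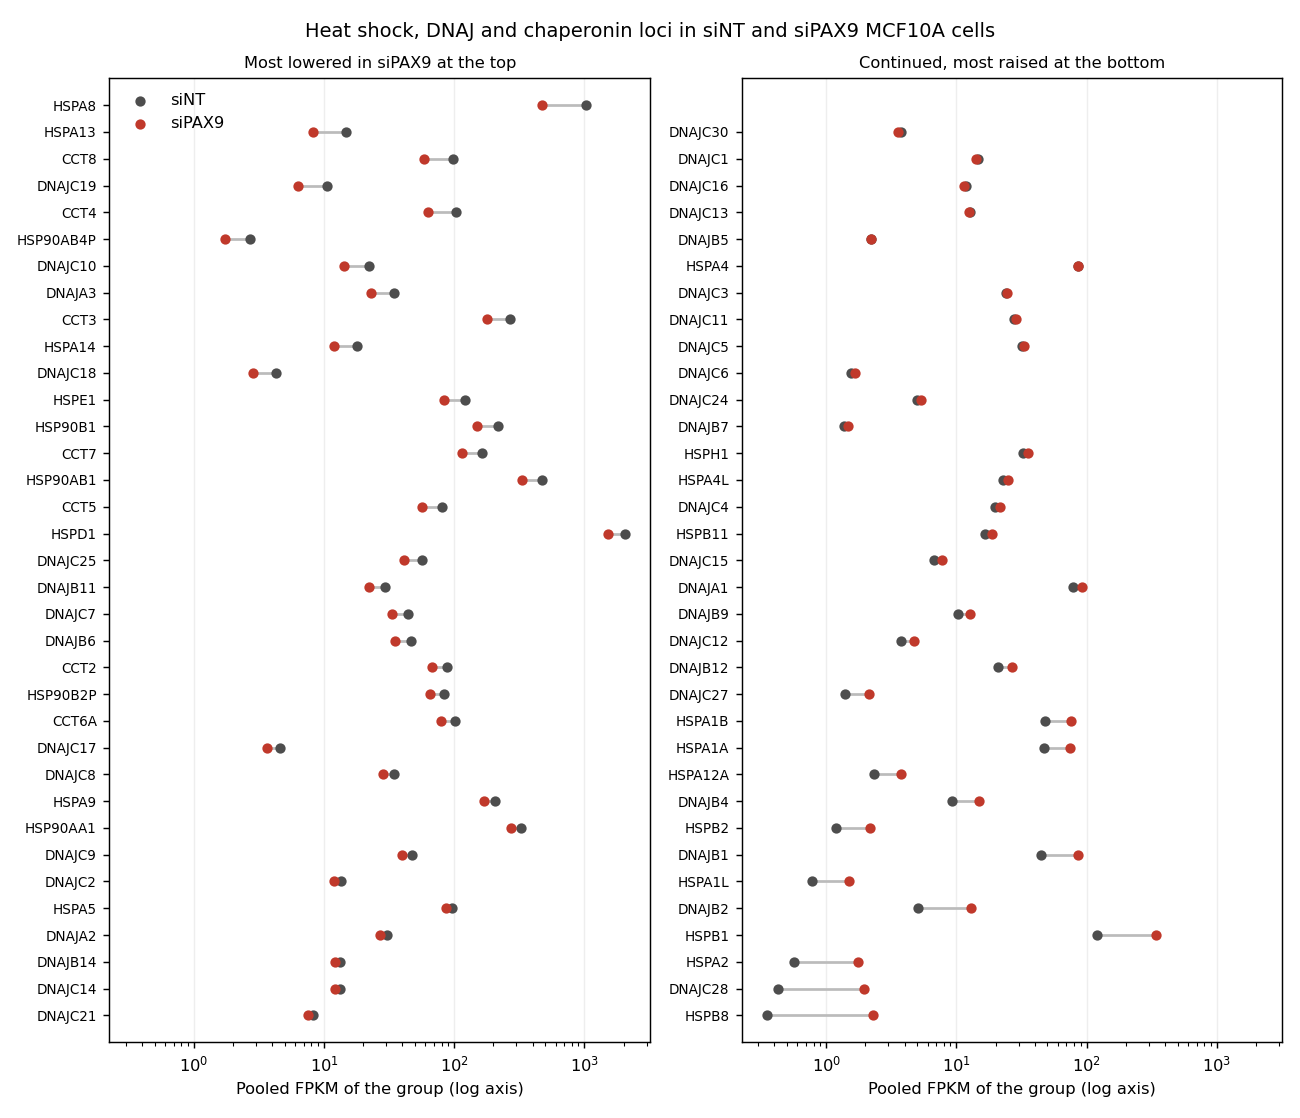
FPKM of the 69 member loci in siNT (grey) and siPAX9 (red) on a log axis, each the authors' pooled value of 3 samples, ordered from the most lowered to the most raised in siPAX9. HSPA8 heads the list at 1024 and 471 FPKM, and HSPB8 ends it at 0.348 and 2.30 FPKM.

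The abundant members were mostly lower in siPAX9. At a mean of at least 50 FPKM, 17 of 22 members were lower (77.3%), with a median log2 change of -0.38, whereas at 1 to 50 FPKM 24 of 47 were lower (51.1%), with a median of -0.02, which scaling to TPM brings above 0. The latter include the 4 members that passed through siPAX9 alone, and without them 24 of 43 were lower (55.8%, median -0.05), beside 55.8% of 10571 named loci filtered in the same way. Named loci as a whole showed the same order, with 68.1% of 1338 abundant loci lower (median -0.25) and 53.8% of 10950 others (median -0.05). Across the 69 members, the rank correlation of mean FPKM and change was -0.44, and across the 12288 named loci it was -0.16. With siNT of at least 1 FPKM these were -0.33 across 65 members and -0.10 across 11908 loci. These describe genes within the same pooled values, which are not independent replicates. The members' FPKM summed to 6670 in siNT and 5184 in siPAX9. The HSPD1 row, which also names SNORA105B, gave 37.5% of that difference and HSPA8 37.3%, and HSPB1 went the other way by 220 FPKM.

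**Figure D2:**
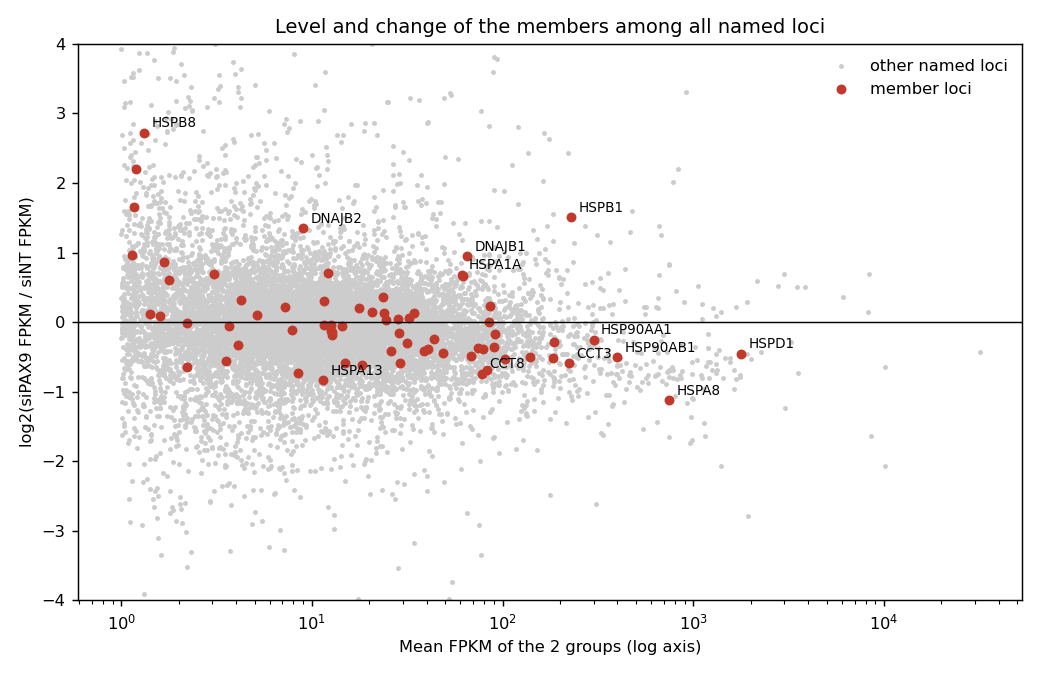
Log2 change of siPAX9 over siNT against the mean FPKM of both groups (log axis), with member loci in red and other named loci in grey; 94 other loci lie beyond the vertical range of 4. The abundant members HSPD1, HSPA8, HSP90AB1 and HSP90AA1 lie below 0, and HSPB1 lies above it.

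The cytosolic HSP70 genes split. HSPA8, the constitutive HSC70 (hg19 chr11:122928199-122933043), stood at 1024 FPKM in siNT and 471 in siPAX9, 2.18-fold lower. HSPA14, an HSP70 bound to ribosomes, was also lower, at 11.9 against 17.9 FPKM. The stress-inducible pair HSPA1A and HSPA1B (chr6:31783290-31785719 and chr6:31795511-31798031) went the other way, from 46.8 to 75.1 and from 47.7 to 75.6 FPKM. Their transcripts are nearly the same, and 73.7% of the 76-base stretches of HSPA1A, the length of a read, also stand in HSPA1B, so how reads were divided between them is uncertain. Their sum was 94.5 FPKM in siNT and 151 in siPAX9, 1.595 times as much. HSPA8 thus exceeded that sum 10.8-fold in siNT and 3.12-fold in siPAX9. HSPA1L, which lies head to head with HSPA1A and is best known from testis, read 0.772 and 1.51 FPKM, and HSPA2, another testis-enriched form, 0.563 and 1.77. HSPA6, the strictly inducible HSP70, was at 0.139 and 0.178 FPKM, and HSPA7 was lower still. The 6 HSP70 genes past the filter had a median log2 change of 0.67, which became 0.04 for the 4 with a mean of at least 5 FPKM. The 12 rows for HSPA1A, HSPA1B and HSPA1L on alternative haplotypes of the major histocompatibility complex were listed at 0.

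Of the HSPA12 branch, HSPA12A was at 2.33 and 3.78 FPKM, and HSPA12B stayed under 1. The HSP110 exchange factors differed little between the groups. HSPA4 (APG-2), which frees HSP70 from its nucleotide, read 85.4 and 85.1 FPKM, close to equal. HSPH1 (HSP105) was at 32.6 and 35.6, and HSPA4L at 22.8 and 25.04 FPKM.

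Both cytosolic HSP90 genes were lower in siPAX9. HSP90AB1, the constitutive form (chr6:44213902-44221625), stood at 470 FPKM in siNT and 330 in siPAX9, a log2 change of -0.51. HSP90AA1, the more inducible form (chr14:102547074-102606086), was at 326 and 273 FPKM, a change of -0.26. The ratio of HSP90AB1 to HSP90AA1 was 1.44 in siNT and 1.21 in siPAX9. Both changes stayed below 0 after scaling to TPM, where the family's median was -0.19. With the total taken over named loci, the shift of 0.26 would be as large as the HSP90AA1 change and would cancel it.

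The CCT chaperonin was lower in every subunit past the filter, also after centring and after scaling to TPM. Of all named loci 55.4% were lower, and of those with a mean of at least 50 FPKM, as all these subunits have, 68.1%. Its ring has 8 different subunits, of which TCP1 falls outside the name rule and CCT6 has a second gene, CCT6B, at 0.610 and 0.547 FPKM. The 7 CCT genes past the filter and TCP1 had log2 changes from -0.75 to -0.36. CCT8 (chr21:30428642-30446118) read 97.9 FPKM in siNT and 58.4 in siPAX9, and CCT4 103 and 63.5. CCT3, the most abundant, was at 267 and 177 FPKM, and CCT7 at 163 and 114. These 4 were 1.42-fold to 1.68-fold lower. CCT5 stood at 79.9 and 56.8 FPKM, CCT2 at 88.8 and 68.1, and CCT6A at 101 and 78.8. TCP1, the alpha subunit, was at 105 and 71.0 FPKM. In the pooled values the subunits did not change in the same proportion, a difference that was not tested. CCT8 stood at 0.971 times CCT6A in siNT and 0.741 times in siPAX9. CCT4 was above CCT6A and CCT2 in siNT and below both in siPAX9. The CCT genes' median of -0.51 was -0.44 after centring and -0.31 after scaling to TPM.

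A list of 13 chaperonin partners and related genes also held TCP1, a subunit of the ring itself. Of the 13, 11 were lower (84.6%, beside 55.4% of named loci). After scaling to TPM 8 were lower (61.5%, beside 39.7%). None was past 2-fold, beside 6.55% of named loci lower and 6.22% higher by that much. All 6 prefoldin subunits (PFDN1, PFDN2, VBP1, PFDN4, PFDN5 and PFDN6) were lower, with PFDN4 at 13.2 and 7.46 FPKM. PDCL and BBS10 were slightly higher in siPAX9.

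**Figure D3:**
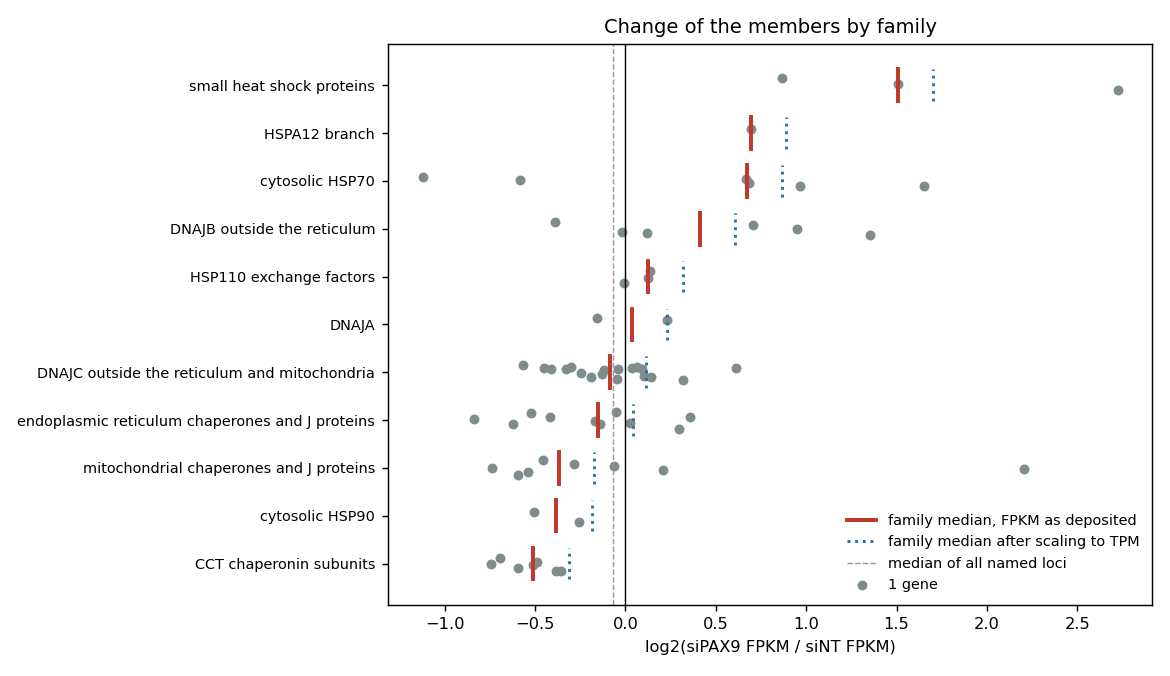
Log2 change of siPAX9 over siNT for each member past the filter, by family, with the family median in the deposited FPKM (red) and after scaling to TPM (blue, dotted) and the median of all named loci (dashed). Families follow fixed lists, which may leave out members of a compartment. CCT, cytosolic HSP90 and mitochondrial medians lie below 0 and small heat shock protein, HSP70 and DNAJB medians above 0 on both scales (with siNT of at least 1 FPKM the HSP70 median is 0.04, from 4 genes, and the small heat shock protein median 1.19, from 2), while the endoplasmic reticulum and remaining DNAJC medians change side after scaling.

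Of the 8 members on a fixed mitochondrial list, 6 were lower (75%, beside 55.4% of named loci). This list and that of the endoplasmic reticulum may not hold every member of the compartment. After scaling to TPM 5 were lower (62.5%, beside 39.7%). HSPD1 (HSP60) was the most abundant member, at 2065 FPKM in siNT, rank 24 of the 12288 named loci, and 1509 in siPAX9. Its row also names SNORA105B, a small nucleolar RNA, so the value may not be that of HSPD1 alone. HSPE1 (HSP10), the lid of the HSP60 barrel, read 122 and 83.7 FPKM on a row that also names HSPE1-MOB4 and MOB4. The pair is transcribed outward from a shared promoter, with starts 105 bases apart and windows that overlap by 204 bases. HSPA9 (mortalin) was at 205 and 168 FPKM, and its J protein DNAJA3 at 34.8 and 23.0. DNAJC19, a J-like protein of the import motor, was at 10.5 and 6.30 FPKM. DNAJC15, its relative at the same motor, was slightly higher, at 6.69 and 7.74, and DNAJC30 was at 3.74 and 3.58. DNAJC28, a poorly described member, read 0.426 and 1.96 FPKM, and its ratio rests on the low siNT value. The median of the 8 was -0.37, and -0.17 after scaling to TPM. Of 6 mitochondrial quality proteases, 5 were lower (83.3%, beside 55.4% of named loci). After scaling to TPM 4 were lower (66.7%, beside 39.7%). LONP1, which degrades misfolded matrix proteins, was the only 1 past 2-fold, at 48.7 and 22.6 FPKM, beside 6.55% of named loci. After scaling to TPM it was not past 2-fold.

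Of the 10 members listed for the endoplasmic reticulum, 7 were lower, beside 55.4% of named loci, with a median of -0.15. Only 4 of 10 stayed lower after scaling to TPM, beside 39.7%, and the median became 0.04. HSP90B1 (GRP94, chr12:104324111-104341852) stood at 216 FPKM in siNT and 151 in siPAX9. HSPA5 (BiP), the HSP70 of the lumen, was at 96.5 and 85.9. HSPA13 (STCH) was the most lowered of the group, at 14.7 and 8.22 FPKM. DNAJC10, a J protein that also reduces disulfides, read 22.1 and 14.4, and DNAJB11 29.5 and 22.2. DNAJC3 (P58IPK) was near equal at 24.1 and 24.5 FPKM, and DNAJB9 and DNAJB12 were somewhat higher, DNAJB12 at 20.7 and 26.6. Among 19 further folding and stress genes of this compartment, 15 were lower (78.9%, beside 55.4% of named loci) and 3 of them by more than 2-fold (beside 6.55%). After scaling to TPM 11 were lower (beside 39.7%) and 2 of them by more than 2-fold (beside 4.44%). PDIA6, a disulfide isomerase, was at 94.8 FPKM in siNT and 28.3 in siPAX9, and PDIA4 at 62.4 and 27.4. XBP1, the transcription factor of the unfolded protein response, was at 66.2 and 26.4 FPKM. DDIT3 (CHOP), which that response raises, read 8.53 and 9.08.

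Among the small heat shock proteins 3 passed the filter, and all were higher, though only HSPB1 was abundant. None was lower, beside 55.4% of named loci. With siNT of at least 1 FPKM 2 were left, none of them lower, beside 57.2% of named loci. HSPB1 (HSP27, chr7:75931874-75933614) was at 119 FPKM in siNT and 340 in siPAX9, 2.84-fold higher, and its rank among named loci went from 503 to 153. Of its 76-base stretches, 9.26% also stand in its processed copy HSPB1P1. HSPB8, which works with BAG3 in selective autophagy, read 0.348 and 2.30 FPKM and passed the filter through siPAX9 alone. HSPB2, a muscle form, read 1.19 and 2.18 FPKM on a row it shares with C11orf52. CRYAB, the small heat shock protein beside HSPB2 that the name rule leaves out, was at 0.0441 FPKM in siNT and 4.73 in siPAX9. Of the 76-base stretches of HSPB2, 48.7% also stand in CRYAB transcripts, so how reads were divided between them is uncertain. HSPB8 shared none of its stretches with other genes, but its ratio rests on the low siNT value. HSPB6, HSPB7 and HSPB9 stayed under 1 FPKM in both groups. HSPB11, now called IFT25 and part of intraflagellar transport, was at 16.4 and 18.9. The HSP90AB1 to HSPB1 ratio was 3.93 in siNT and 0.973 in siPAX9, so in siPAX9 HSPB1 was about as abundant as the main HSP90 transcript.

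The J proteins of the cytosol differed among themselves. DNAJB1 (HSP40, chr19:14625575-14640134), the main inducible partner of HSP70, stood at 44.6 FPKM in siNT and 86.1 in siPAX9, 1.93-fold higher. DNAJB2, which sorts clients toward the proteasome, was at 5.07 and 12.9 FPKM, and DNAJB4, a close relative of DNAJB1, at 9.20 and 14.99. DNAJB6, a suppressor of protein aggregation, was lower at 46.2 and 35.3 FPKM. DNAJB5 and DNAJB7 were low and near equal in the groups. The 6 had a median of 0.41, and 2 of them were lower (33.3%, beside 55.4% of named loci), or 1 after scaling to TPM (16.7%, beside 39.7%). For those with a mean of at least 5 FPKM the median was 0.83. In class A, DNAJA1 read 78.7 and 92.3 FPKM and DNAJA2 30.2 and 27.2, while DNAJA4 stayed under 1.

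None of the remaining 18 DNAJC genes past the filter was past 2-fold, beside 6.55% of named loci lower and 6.22% higher by that much. Their log2 changes ran from -0.57 for DNAJC18, at 4.25 and 2.87 FPKM, to 0.61 for DNAJC27, at 1.40 and 2.14. Of the 18, 11 were lower (61.1%, beside 55.4% of named loci), with a median of -0.08. In TPM 6 were lower (33.3%, beside 39.7%), and the median became 0.11. DNAJC25, the most abundant, read 56.2 and 41.1 FPKM on a row shared with GNG10. DNAJC7, which also binds HSP90, was at 44.1 and 33.1, and DNAJC9, a histone chaperone, at 47.4 and 40.0 on a row shared with MRPS16. DNAJC13, DNAJC16 and DNAJC5 differed by less than 5%. HSP90AB4P and HSP90B2P, whose names mark pseudogenes but do not end in a digit, met the rule. HSP90AB4P was at 2.71 and 1.74 FPKM, and HSP90B2P, counted above among the abundant members that were lower, at 83.9 and 65.0.

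Regulators and cochaperones were mixed. HSF1 was at 48.8 FPKM in siNT and 41.98 in siPAX9 and HSF2 at 6.47 and 5.23, and HSBP1, which binds HSF1 trimers, at 52.5 and 33.9. HSF4 read 13.1 and 20.0 FPKM on a row shared with FBXL8 and NOL3. Of 32 cochaperones of HSP70 and HSP90, 21 were lower (65.6%, beside 55.4% of named loci) and 11 higher, with a median of -0.17. None was past 2-fold, beside 6.55% of named loci lower and 6.22% higher by that much. After scaling to TPM 15 were lower (46.9%, beside 39.7%) and 17 higher, and the median turned to 0.03. The HSP70 exchange factor HSPBP1 was among the most lowered, at 23.7 and 12.6 FPKM, with BAG2 at 20.2 and 10.8 and ST13 (HIP), which steadies the HSP70 cycle, at 72.8 and 40.9. BAG1 was the most raised, at 33.02 and 54.6 FPKM, and STUB1 (CHIP), the ubiquitin ligase of both chaperones, was at 33.4 and 46.2. BAG3, itself heat-inducible, read 36.5 and 45.4 FPKM. Of 4 other stress proteins, 1 was lower (25%, beside 55.4% of named loci) and 3 were higher. Past 2-fold were 1 lower and 2 higher, beside 6.55% and 6.22% of named loci. SERPINH1 (HSP47), a collagen chaperone, was at 72.9 FPKM in siNT and 29.1 in siPAX9, and HMOX1 at 0.841 and 2.51. SQSTM1 read 157 and 198 FPKM. CRYAB and HMOX1 passed the filter through siPAX9 alone.

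A list of 12 heat-inducible genes was drawn from these families, and HSPA8, named above as the constitutive HSC70, was among them. Of the 11 past the filter, 4 were lower in siPAX9 (36.4%, beside 55.4% of named loci) and 7 higher, with a median of 0.13. The same 4 were lower after scaling to TPM, beside 39.7% of named loci, and the median was 0.33. HSPA8, HSPD1, HSPE1 and HSP90AA1 were the 4 that were lower, and HSPB1, DNAJB1, HSPA1A, HSPA1B, DNAJA1, HSPA4L and HSPH1 were the 7 that were higher.

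Promoter windows were then counted over all members. RefSeq windows were found for 72 member symbols, 62 of them past the filter (HSPE1 and HSPE1-MOB4 each counted). A gene was counted where any of its windows held the motif on either strand. Letters had to match exactly, so genes with 2 units and no more can hold a further unit with a changed base. GAANNTTCNNGAA was present in 0.49% of all 35116 windows and in 6 of the 62 members, beside 47 of the 9475 named genes past the filter. Of these 6, HSPA8, HSP90AB1, HSPD1, DNAJB6 and HSP90AA1 were lower in siPAX9 (83.3%, beside 57.4% of the 47 genes) and DNAJA1 was higher. The 47 include these 6, and of the 41 genes outside the members 53.7% were lower. In HSPA8 the matches began 230 and 55 bases before the start, and in HSP90AA1 the match began 88 bases before it. GAANNTTC or TTCNNGAA, which every 3-unit match also contains, was present in 13.5% of all windows, in 13.6% of the 9475 genes and in 32.3% of the 62 members. These 20 members had a median of 0.13, with 12 higher and 8 lower. Of the 14 with 2 units and no more, 11 were higher (78.6%, beside 43.0% of the 1246 genes of that kind), among them HSPA1A, HSPA1B, HSPA1L, DNAJB1, DNAJB4, HSPB1 and HSPB8, and 3 (CCT4, CCT2 and HSPA9) were lower. Median log2 changes were -0.42 for the 6 with 3 units, 0.44 for the 14 with 2, and -0.15 for the 42 with no match, and of these the last changed sign after scaling to TPM, to 0.05. Over all 9475 genes, members included, the medians lay closer together. They were -0.11 for 47 genes with 3 units, -0.09 for 1246 with 2 and no more and -0.08 for 8182 with no match. Outside the members they were -0.06 for 41 genes, -0.09 for 1232 and -0.08 for 8140, in the same order of classes. HSPA1L and HSPB8 passed the filter through siPAX9 alone, and without them the median of the members with 2 units was 0.17, with 9 of 12 higher, beside 40.7% of 1198 genes with siNT of at least 1 FPKM. The HSPA1A and HSPA1B windows are near copies, equal at 277 of 299 positions when moved by 1 base, and the HSPA1L window overlaps that of HSPA1A by 241 bases, so these 3 do not count as separate cases. With HSPA1B left out as well, that median was 0.13, with 8 of 11 higher. The split was drawn after the values were seen, and it was not tested.

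**Figure D4:**
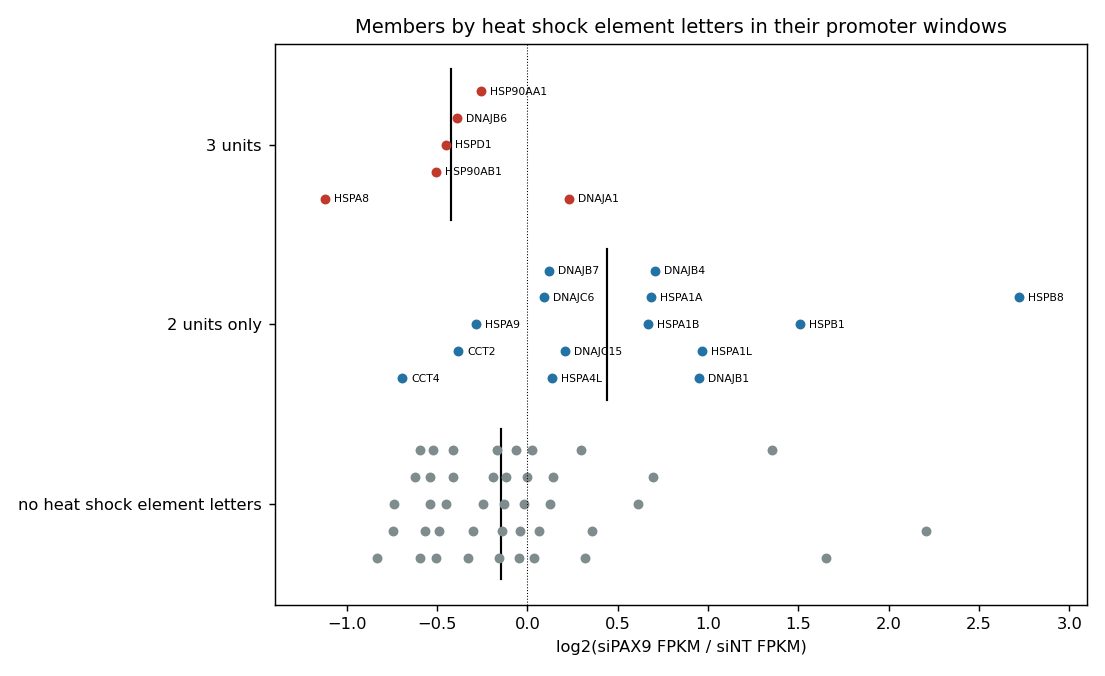
Log2 change of siPAX9 over siNT for 62 members with a promoter window, by exact matches to the letters of heat shock elements in it. Vertical lines are medians, and a unit with a changed base was not counted. Members with 3 units lie below 0 except DNAJA1, and 11 of 14 members with 2 units lie above 0, of which HSPA1L and HSPB8 were under 1 FPKM in siNT.

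The endoplasmic reticulum stress element was present in 2 of the 62 members, HSPA5 and HSP90B1, and in 15 of the 9475 genes. In HSP90B1 its matches began 194 and 89 bases before the start. The CCAAT box (CCAAT), part of that element, was present in 27 of the 62 members (43.5%) and in 43.6% of the 9475 genes. A match describes letters in a window and does not show that a factor binds there.

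The proteasome subunit genes, whose products degrade what chaperones fail to fold, are set beside the chaperone genes. Of 39 PSMA, PSMB, PSMC and PSMD genes, 37 passed the filter, and 30 of these (81.1%) were lower in siPAX9, beside 59.4% of the chaperone loci, 55.4% of named loci and 68.1% of named loci with at least 50 FPKM. Their median log2 change was -0.27, beside -0.12. After scaling to TPM 23 of 37 were lower (62.2%, beside 39.7% of named loci). Past 2-fold, 1 was lower (PSMB9, at 6.28 and 3.12 FPKM), beside 6.55% of named loci, and 0 were higher, beside 6.22%. On the other scalings none was 2-fold lower. The difference between the groups of genes was not tested.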

How the data were processed

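Per the study's methods and the submitters' processing notes, the authors aligned single-end reads of poly(A)+ RNA to hg19 with Bowtie2 and quantified them with Cufflinks in Partek Flow. The deposited table holds FPKM per locus, 1 value per group, in which the authors combined 3 samples; how libraries were scaled against each other is not given in the sources used here. Its 41656 rows include 13978 without a gene symbol. The authors' own comparison columns (log2 fold change, test statistic, p-value, q-value and a call) were not used. The change was computed as log2 of siPAX9 FPKM over siNT FPKM, without a pseudocount. For a symbol with several rows the row with the highest mean was kept, symbols on the same row were counted once, and loci with a mean of at least 1 FPKM and values above 0 in both groups entered counts and medians. With 1 pooled value per group no test was run; a locus was counted as changed past a fold of 2 (or 1.5). The table gives no depth per sample, and the study's methods give reads per library only as a range over all samples, so no interval is given.

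The members and lists were chosen with earlier results of these data known. Genes named in the text are PAX9, all CCT and cytosolic HSP90 genes, the most abundant, most lowered and most raised member of each family, the 10 largest decreases and increases among members, and listed pathway genes past 2-fold; other names were chosen after their values were seen. Gene positions came from the table (hg19), where a position can span several merged genes. Sharing of 76-base stretches, the read length, was measured between GENCODE transcripts on either strand; of 70 member symbols past the filter, 29 shared none with genes outside their row, and 5 (CCT5, DNAJC9, DNAJC14, HSPA1A and HSPA1B) shared at least 50%, which leaves their values uncertain. Whether counting used strand is not given. Promoter windows came from RefSeq (GRCh38.p14); protein sequences were not used here. Summaries and motif searches were tested on simulated data. Python 3.11.15, numpy 2.4.6, pandas 2.3.3, scipy 1.17.1 and matplotlib 3.10.9 were used.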

Additional observations from a re-analysis of the deposited data

Results flagged for a closer look

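Rows without a symbol, which enter the comparisons above through the total for TPM and in no other way, held signal on processed copies of HSPB1 that was higher in siPAX9 than in siNT. The row on HSPB1P1 (hg19 chr9:74622658-74623058) read 58.4 FPKM in siNT and 147.77 in siPAX9, and the row on HSPB1P2 (chrX:49090439-49090789) 93.2 and 292.734 FPKM. Their log2 changes were 1.34 and 1.65, and that of HSPB1 was 1.51. HSPB1P1 shares 9.26% of the 76-base stretches of HSPB1, and whether reads of HSPB1 were placed on these rows was not tested.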

How the results depend on the processing

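No paired analysis was possible because the table holds 1 pooled value per group, although the labels number the samples of both groups alike; for the same reason no sample could be left out. Without a filter on low values, 3 members were 2-fold lower and 8 higher, and the HSPA12 median turned to -0.38 through HSPA12B. With a mean of at least 5 FPKM 2 were 2-fold higher, as with siNT of at least 1 FPKM, an alternative added after seeing the data. At 1.5-fold 9 were lower and 13 higher. After scaling to TPM 0 were 2-fold lower and 8 higher, and medians turned to 0.075 for the members, 0.041 for the endoplasmic reticulum and 0.11 for the remaining DNAJC genes, through the common shift. The 4 main values held within 1.5 times, or 0.1 for the median, in the other 33 of 42 comparisons, which include 1 added to each FPKM, centring, summed rows, single-symbol rows, rows that the authors marked as having enough reads and, added later, leaving out HSP90AB4P and HSP90B2P. Of 103 family medians, 82 moved by at most 0.1 and 18 by more with the same sign. Of the 5 increases, 3 were under 1 FPKM in siNT. The background under TPM, the lists under other scalings and the shares, family medians and rank correlations with siNT of at least 1 FPKM were also added after seeing the data. So were the promoter values without low members, over all genes and over genes outside the members.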

Other observations

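Of 105 annotated processed copies of member genes, 8 had a row of their own without a symbol, overlapping it by at least 50% of each length, and all 8 were above 1 FPKM. Of these 8, 5 were lower in siPAX9, beside 47.9% of the 9448 rows without a symbol past the same filter and 55.4% of named loci. HSPE1P4 read 704 FPKM in siNT and 464 in siPAX9, and HSPE1P6 439 and 325. The HSPE1 row, which also names HSPE1-MOB4 and MOB4, read 122 and 83.7 FPKM. These levels are hard to compare, since both copy rows are short (hg19 chr12:102267071-102267248 and chr1:203872854-203873045) and FPKM divides by length. Of the stretches of read length in HSPE1, 21% also stand in genes outside its row. Whether reads of HSPE1 were placed on the copies was not tested. HSPD1P4 was at 152 and 93.4 FPKM, CCT5P1 at 44.5 and 34.6, and DNAJC19P9 at 78.1 and 56.9. The copies of HSPB1 were higher in siPAX9, as HSPB1 was, and DNAJC17P1 was at 9.33 and 10.4 FPKM while DNAJC17 was at 4.58 and 3.65.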
